A study of Drosophila melanogaster with 7 samples.

Results

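Condensin and topoisomerase II fold and disentangle chromosomes before each division. Their genes were followed by RNA sequencing in HP1-KD and control embryos of *Drosophila melanogaster*. The 8 genes *SMC2*, *glu*, *barr*, *Cap-D2*, *Cap-G*, *Cap-H2*, *Cap-D3* and *Top2* were taken by their FlyBase symbols from a table of 17699 genes. The rule uses no measured value, though the 8 genes were chosen with earlier results of these data known. All 8 had enough counts to be tested.

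HP1 is the heterochromatin protein HP1a, encoded by *Su(var)2-5*, and the study asked what it does for the folding of chromosomes in the early embryo. The HP1-KD group holds 3 libraries. Its embryos came from mothers of the RNA interference stock Bloomington 33400, whose hairpin against HP1 was switched on in the female germ line by the Gal4 driver of stock 7063. The control group holds 4 libraries from stock 36303, and the labels do not say whether these flies carried the driver. All flies were kept at 25 °C. All embryos were staged by hand at stage 5, the time of zygotic genome activation (ZGA), and embryos that stopped earlier were therefore not sampled. The paper describes the knockdown as partial, and only a small minority of its HP1-KD embryos reached ZGA. Knockdown in the mother lowers the supply of HP1 without deleting its gene. One tissue label calls all 7 samples wild-type, whereas title and genotype separate the groups, and the groups follow title and genotype.

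Condensin is a ring of paired SMC ATPases, SMC2 and the fly SMC4 named Gluon, closed by a kleisin subunit that carries a pair of HEAT-repeat proteins. Metazoans have condensin I, with the kleisin Barren (*barr*) and the subunits Cap-D2 and Cap-G, and condensin II, with the kleisin Cap-H2 and the subunit Cap-D3. Condensin I compacts mitotic chromosomes, while fly condensin II is known for keeping homologous chromosomes apart. Topoisomerase II passes one DNA duplex through another, and sister chromatids cannot part without it. Early embryos divide rapidly on maternal stocks of these proteins and transcripts.

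Total estimated counts ranged from 8678092 to 16983585.5 in HP1-KD libraries and from 10927292.5 to 14374654.5 in control libraries. Ribosomal RNA genes took up 80.73%, 37.27% and 79.13% of the counts in HP1-KD replicates 1 to 3, against 15.32% to 47.22% in control libraries. The target *Su(var)2-5* had 1174, 1426 and 1187 normalized counts in HP1-KD libraries, against 2727, 3122, 3958 and 3315 in control libraries. It fell to 38.5% of the control mean, a log2 fold change of −1.38 ± 0.15 (standard error, SE, with an adjusted p of 0.00231 in edgeR's quasi-likelihood test). A normalized count is a count after libraries were scaled to each other (edgeR's TMM), and a gene was called when its Benjamini-Hochberg adjusted p in that test was under 0.05. Of 8008 genes tested, 392 (4.9%) were called lower and 296 (3.7%) higher in HP1-KD embryos. These 688 calls became 247, 231 and 181 without HP1-KD replicates 1, 2 and 3, and 349, 1212 and 207 without control replicates 2, 3 and 4. The 14 zygotic genes used as markers of stage 5 were all tested, and the 10 genes of follicle cells of the ovary did not reach the level for testing, with a summed CPM (counts per 1000000 counts of a library after TMM scaling) of 4.94 in HP1-KD replicate 1 and at most 0.55 in any other library, and with 2 genes at 0 in all libraries. Nothing in the labels states how many embryos made up a library or whether libraries came from separate cages. The p-values therefore set the difference between groups against the spread between these libraries alone.

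Condensin and *Top2* transcripts were present at 69.1% to 116% of their control means in HP1-KD embryos. None of the 8 genes was called by edgeR, against the 4.9% called lower and the 3.7% called higher among all genes. Of the 8, 7 had a negative log2 fold change, beside 52.2% of all genes tested. All 8 were negative under scaling by total count alone, which put the median of all genes at −1.15. Their median was −0.37, in a range from −0.53 to 0.21, and the median of all genes tested was −0.03. The SMC core, *Cap-H2* and *Top2* lay at 74.6% to 77.7% of the control mean, whereas *barr*, *Cap-D2*, *Cap-G* and *Cap-D3* overlapped between the groups. All HP1-KD libraries lay below all control libraries for *SMC2*, *glu*, *Cap-H2* and *Top2*, 4 of 8 genes, beside 15.1% of all genes tested. The same 4 genes had an unadjusted p under 0.05 and a lower level in HP1-KD embryos, beside 15.3% of all genes. At an adjusted p under 0.1, *SMC2*, *glu* and *Top2* passed, as did 9.6% of all genes in the lower direction. DESeq2's Wald test called the same 3 genes lower at an adjusted p under 0.05, beside 9.8% of all genes, and limma-voom called 0 of 8. Fewer cells of a type and less RNA per cell cannot be told apart in whole embryos.

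**Figure D1:**
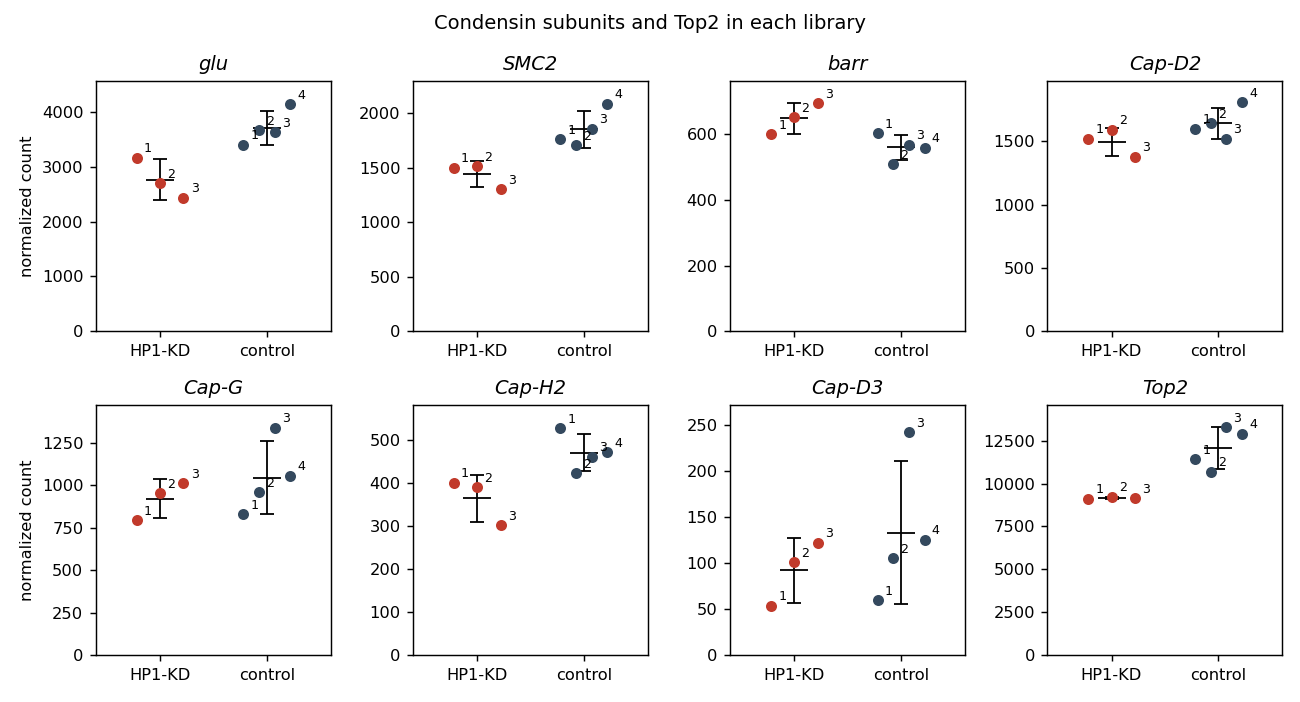
Normalized counts (y axes, from 0) of the 8 genes in the 3 HP1-KD libraries (red) and the 4 control libraries (dark blue). Points are libraries with their replicate numbers, bars are the group mean and SD. For *glu*, *SMC2*, *Cap-H2* and *Top2* every red point lies below every blue point, and the highest *Cap-D3* value is 242.6 in control replicate 3.

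The 2 ATPases of the core serve both condensins. *glu* (FBgn0015391) spans positions 16733617 to 16738388 of chromosome 2L (dm6, minus strand), and 8 nt of its 4521 nt of exon overlap *Nubp1*. It had 3162, 2702 and 2436 normalized counts in HP1-KD libraries, against 3400, 3663, 3628 and 4139 in control libraries. The highest HP1-KD library, replicate 1, still lay below the lowest control library, also replicate 1. The means were 2766 ± 367 (SD, n = 3) in HP1-KD and 3708 ± 311 (SD, n = 4) in control embryos, a log2 fold change of −0.42 ± 0.12 (SE, adjusted p = 0.0727 by edgeR). Without control replicate 1 it was −0.46 and passed the threshold (adjusted p = 0.0496 by edgeR). *glu* was the only one of the 8 genes called in any of the 7 fits that left out a library. Chromosome 2L, where *glu* lies, also carries *barr*, *Cap-D3* and *Top2*. The paper reports an inversion on this chromosome in HP1-KD embryos. The part of the inversion in the values of these genes was not tested.

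*SMC2* (FBgn0027783), the partner of Gluon, spans 2R positions 14848621 to 14852653 (minus strand), with 3690 nt of exon that no other gene overlaps. Normalized counts were 1499, 1516 and 1303 in HP1-KD libraries, against 1763, 1704, 1859 and 2086 in control libraries. As for *glu*, HP1-KD replicate 3 was the lowest library and control replicate 4 the highest. HP1-KD embryos averaged 1439 ± 119 and control embryos 1853 ± 168 (SD, n = 3 and 4), a log2 fold change of −0.36 ± 0.11 (SE, adjusted p = 0.0845 by edgeR). The 95% interval of this difference, taken for the gene alone and not adjusted over the genes tested, ran from −0.63 to −0.1. For *glu* it ran from −0.71 to −0.14.

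The 3 subunits that distinguish condensin I had log2 fold changes of either sign, all negative only under scaling by total count alone. *barr* (FBgn0014127, 2L from 20058163 to 20061370 on the minus strand, 2908 nt of exon), the kleisin of condensin I, had 600.4, 652.9 and 694.7 normalized counts in HP1-KD libraries, against 603.7, 509.4, 568.6 and 558.9 in control libraries. Only control replicate 1 reached into the range of the HP1-KD libraries. The means were 649.3 ± 47.3 in HP1-KD and 560.2 ± 38.9 in control embryos (SD, n = 3 and 4), a log2 fold change of 0.21 ± 0.11 (SE, adjusted p = 0.244 by edgeR, 95% interval −0.05 to 0.47). This positive sign turned to −0.89 under scaling by total count alone, above the median gene of that scaling (−1.15). It held in the 7 fits that left out a library, with log2 fold changes of 0.16 to 0.29.

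*Cap-D2* (FBgn0039680, 3R from 29675651 to 29680257 on the plus strand, 4301 nt of exon), a HEAT-repeat subunit of condensin I, had 1521, 1593 and 1377 normalized counts in HP1-KD libraries, against 1598, 1642, 1520 and 1808 in control libraries. The groups overlapped through control replicate 3, and without that library all HP1-KD libraries lay below all control libraries. Its log2 fold change was −0.13 ± 0.11 (SE, adjusted p = 0.421 by edgeR, 95% interval −0.38 to 0.11). Its last 17 nt of exon overlap *CG7582*, which had no count in any library.

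*Cap-G* (FBgn0259876, 2R from 13133142 to 13142820 on the plus strand, 4387 nt of exon), the other HEAT-repeat subunit, had 796.1, 956.1 and 1015 normalized counts in HP1-KD libraries, against 829.1, 959.5, 1340 and 1058 in control libraries. Replicate 1 was the lowest library in each group, and control replicate 3 the highest of all. The log2 fold change was −0.18 ± 0.18 (SE, adjusted p = 0.506 by edgeR, 95% interval −0.59 to 0.23). It was −0.05 without control replicate 3 and −0.06 without HP1-KD replicate 1. An intron of *Cap-G* holds a Doc retrotransposon of 4726 nt on the other strand, outside the exons.

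Condensin II was represented by 2 subunits of its own, its kleisin and a HEAT-repeat protein. *Cap-H2* (FBgn0037831, 3R from 10761310 to 10766756 on the plus strand, 4087 nt of exon), the kleisin, had 400.3, 389.3 and 301.9 normalized counts in HP1-KD libraries, against 527.2, 421.9, 460.4 and 471.1 in control libraries. The groups did not overlap, and HP1-KD replicate 3 was the lowest library. The means were 363.8 ± 53.9 in HP1-KD and 470.1 ± 43.5 in control embryos (SD, n = 3 and 4), a log2 fold change of −0.37 ± 0.15 (SE, adjusted p = 0.149 by edgeR, 95% interval −0.71 to −0.03). It was −0.25 without HP1-KD replicate 3. Of its exons, 11.45% overlap exons on the other strand. Most of that overlap belongs to the antisense RNA *asRNA:CR45016*, which had 2.22 normalized counts in HP1-KD replicate 1 and none elsewhere. The remaining 135 nt belong to *TfIIFbeta*, a subunit of the general transcription factor TFIIF, with 1105, 1152 and 994.6 normalized counts in HP1-KD libraries against 1289, 1335, 1484 and 1459 in control libraries. *TfIIFbeta* had a log2 fold change of −0.36 (adjusted p = 0.0748 by edgeR), close in size to that of *Cap-H2*. How strands were counted is not given in the sources used here, so reads of this stretch may belong to either gene.

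*Cap-D3* (FBgn0051989, 2L from 5525905 to 5535958 on the plus strand, 4049 nt of exon), the HEAT-repeat subunit of condensin II, had the fewest reads of the 8 genes. Its estimated counts before normalization were 24, 76.5 and 59 in HP1-KD libraries, against 59, 138, 392.5 and 174.5 in control libraries. After normalization they were 53.4, 100.6 and 122.0 in HP1-KD libraries, against 59.4, 105.1, 242.6 and 125.3 in control libraries. Replicate 1 was low in each group, and control replicate 3 stood far above the next library. The log2 fold change of −0.53 had a standard error of 0.49 and a 95% interval from −1.66 to 0.59 (adjusted p = 0.48 by edgeR). It was −0.08 without control replicate 3, −0.24 without HP1-KD replicate 1, and −0.76 without HP1-KD replicate 3 or control replicate 1. The standard error was 0.36 without control replicate 3.

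Of the *Cap-D3* exons, 20.3% overlap other genes, mainly *asRNA:CR44793* on the other strand, which had at most 4.03 normalized counts in any library. Its introns hold 3 genes. *Cox11*, on the same strand, had 8.89, 15.9 and 18.6 normalized counts in HP1-KD libraries, against 14.1, 19.0, 56.3 and 30.3 in control libraries. Within each group its libraries came in the same order as those of *Cap-D3*, with replicate 1 the lowest, and control replicate 3 was the highest of all. *Coq6*, on the other strand, had 84.5, 68.9 and 101.3 in HP1-KD libraries, against 40.3, 54.1, 50.1 and 39.6 in control libraries, and a log2 fold change of 0.87 (adjusted p = 0.0651 by edgeR). *CG31915*, on the same strand, had a log2 fold change of −0.17 (adjusted p = 0.459 by edgeR). These neighbours were listed after the values of *Cap-D3* had been seen.

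*Top2* (FBgn0284220, 2L from 19447365 to 19453490 on the minus strand, 5242 nt of exon) encodes the only topoisomerase II of the fly. It had 9126, 9222 and 9139 normalized counts in HP1-KD libraries, against 11420, 10700, 13300 and 12910 in control libraries. The HP1-KD libraries differed from each other by less than control libraries did, and none reached the lowest control library, replicate 2. The means were 9162 ± 52.3 in HP1-KD and 12080 ± 1230 in control embryos (SD, n = 3 and 4), with a log2 fold change of −0.4 ± 0.12 (SE, adjusted p = 0.0741 by edgeR, 95% interval −0.67 to −0.13). The value passed the threshold with ribosomal RNA genes removed (adjusted p = 0.0382), among protein-coding genes only (0.046) and with edgeR's robust fit (0.0449), at log2 fold changes of −0.4, −0.41 and −0.4. DESeq2's Wald test gave −0.39 (adjusted p = 0.00476), and over all alternatives apart from total count alone the log2 fold change lay between −0.46 and −0.36. *Top2* passed in none of the 7 fits that left out a library (adjusted p of 0.0578 to 0.211 by edgeR). Among the 10 other alternatives, total count alone aside, it passed in these 4. The highest adjusted p among the 10 was 0.291, by edgeR with the replicate number as a block. Ribosomal RNA took up most counts in 2 of the 3 HP1-KD libraries, replicates 1 and 3. Outside ribosomal RNA these had 3272009.5 and 3295814 counts, against 7324415.5 to 11775952 in control libraries, and removing those genes leaves that depth as it was. The part of ribosomal RNA or depth in the difference of *Top2* was not tested.

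**Figure D2:**
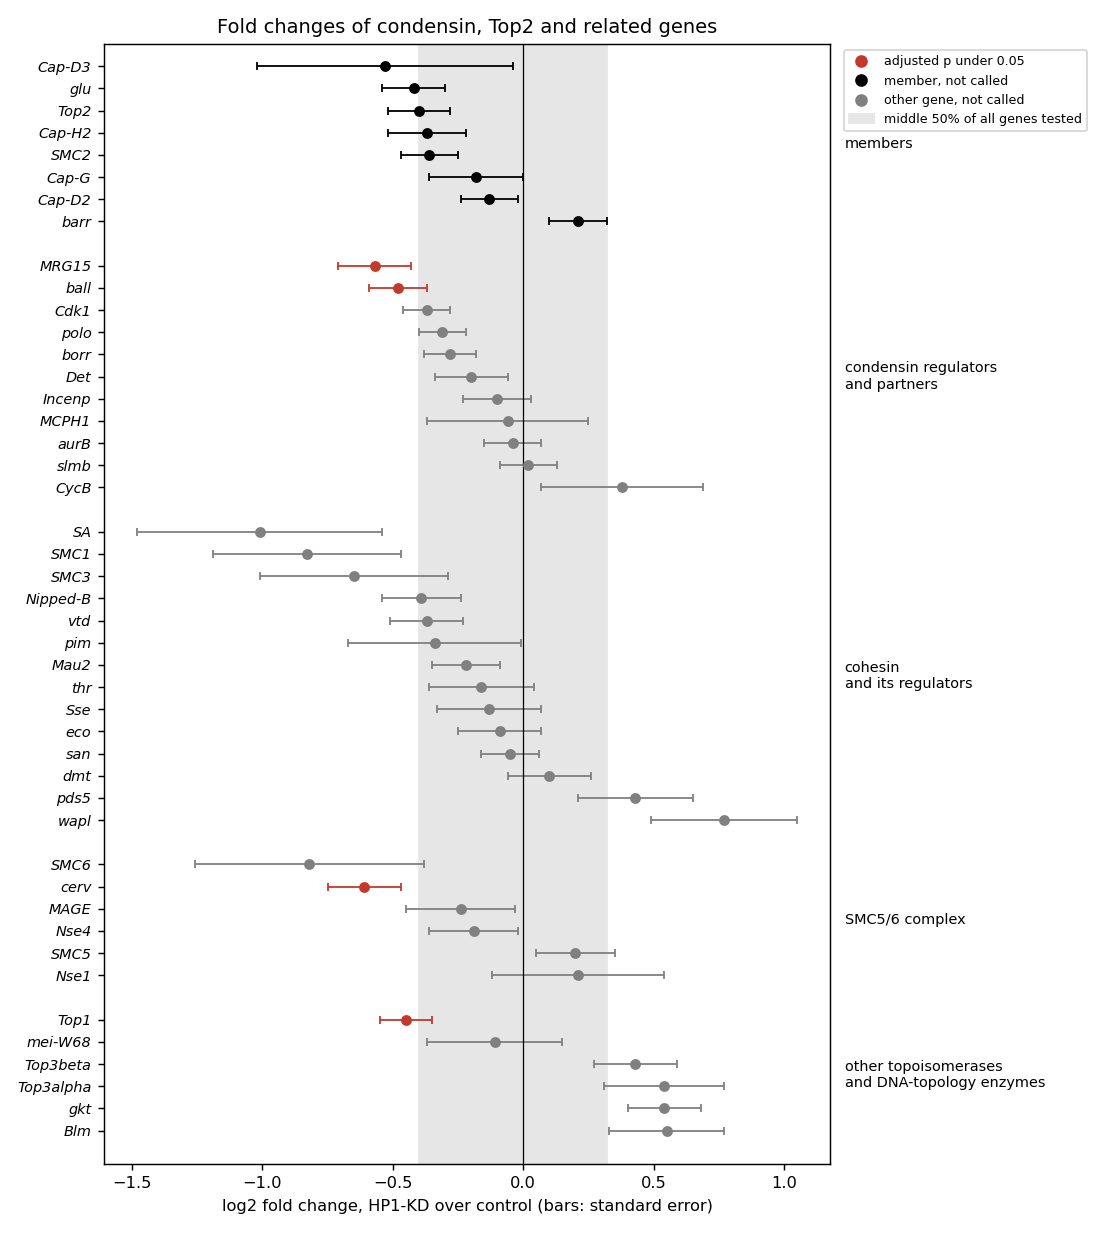
Log2 fold changes of HP1-KD over control embryos (x axis) with their standard errors, for the 8 genes (black) and the tested genes of 4 lists of related complexes. Grey points were not called, red points had an adjusted p under 0.05, and the band from −0.4 to 0.32 holds the middle 50% of all genes tested. *Cap-D3* (−0.53), *glu* (−0.42) and, at its very edge, *Top2* (−0.4) lie left of the band, and *MRG15*, *ball*, *cerv* and *Top1* are the 4 red points.

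The position of the 8 genes among all genes tested can be read from the distribution of log2 fold changes. *Cap-D3* lay at percentile 20.1, *glu* at 23.8, *Top2* at 24.9, *Cap-H2* at 26.3 and *SMC2* at 26.6. *Cap-G* and *Cap-D2* lay at 37.4 and 41.2, and *barr* at 67.8. The lowest 5% of all genes lay below −1.51, below any of the 8. By the strength of the test, 12.3% of genes had a smaller p than *glu*, 12.4% than *Top2*, 14.6% than *SMC2* and 25.1% than *Cap-H2*. The share for the other members was 39% or more.

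Levels of different genes were compared per length, as CPM per kilobase of exon. *Top2* came first with 121 ± 0.692 CPM per kb in HP1-KD and 160 ± 16.2 in control embryos (SD, n = 3 and 4). Next was *glu* with 42.5 ± 5.64 in HP1-KD and 56.9 ± 4.77 in control embryos. *SMC2* had 27.1 ± 2.23 in HP1-KD and 34.8 ± 3.16 in control embryos, and its neighbour in the order was a subunit of condensin I. This was *Cap-D2*, with 24.2 ± 1.77 in HP1-KD and 26.5 ± 1.96 in control embryos. *barr* had 15.5 ± 1.13 in HP1-KD and 13.4 ± 0.928 in control embryos, and *Cap-G* 14.6 ± 1.79 in HP1-KD and 16.6 ± 3.43 in control embryos. The subunits of condensin II were last, *Cap-H2* with 6.18 ± 0.915 in HP1-KD and 7.98 ± 0.739 in control embryos and *Cap-D3* with 1.58 ± 0.602 in HP1-KD and 2.28 ± 1.34 in control embryos. Neighbours in this order did not overlap between libraries, apart from *barr* and *Cap-G* in each group and *SMC2* and *Cap-D2* in HP1-KD embryos.

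**Figure D3:**
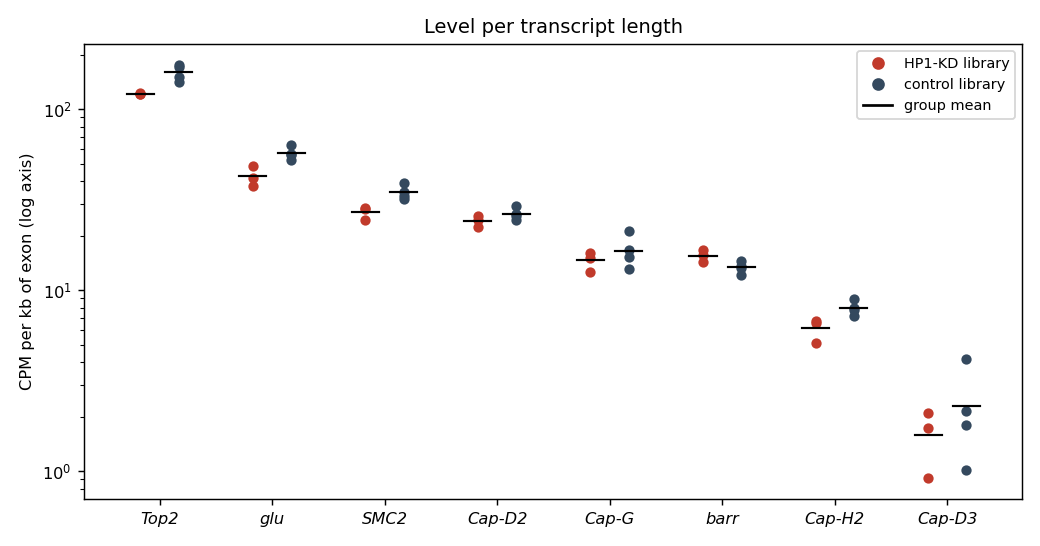
Level per transcript length (y axis, CPM per kb of exon, logarithmic) of the 8 genes, ordered by their control mean. Red points are HP1-KD libraries, dark blue points control libraries and lines group means. *Top2* has the highest means (121 in HP1-KD and 160 in control embryos) and *Cap-D3* the lowest (1.58 in HP1-KD and 2.28 in control embryos).

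Subunits that take the same place in condensin I and II were compared within each library as a ratio of levels per length, which does not depend on how libraries are scaled. The 2 kleisins had a ratio that separated the groups. *Cap-H2* alone also separated them, and neither kleisin gene was called. How often the ratio of other gene pairs would separate the groups was not counted. *barr* over *Cap-H2* was 2.11, 2.36 and 3.24 in HP1-KD libraries, against 1.61, 1.7, 1.74 and 1.67 in control libraries, with no overlap. The mean ratio was 2.57 ± 0.592 in HP1-KD and 1.68 ± 0.0533 in control embryos (SD, n = 3 and 4). *Cap-D2* over *Cap-D3* was 26.8, 14.9 and 10.6 in HP1-KD libraries, against 25.3, 14.7, 5.9 and 13.6 in control libraries. Here the groups overlapped throughout, and replicate 1 was the highest of each. These ratios are descriptions, and no test was made of them.

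A further pair of ratios was added after the values had been seen. The ATPases had similar ratios in both groups, with *glu* over *SMC2* at 1.72, 1.45 and 1.53 in HP1-KD libraries and 1.57, 1.75, 1.59 and 1.62 in control libraries. *Cap-G* over *barr*, both of condensin I, was 0.879, 0.97 and 0.969 in HP1-KD libraries and 0.91, 1.25, 1.56 and 1.25 in control libraries. Control replicate 1 lay among the HP1-KD libraries in this ratio, and the other 3 control libraries above them.

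**Figure D4:**
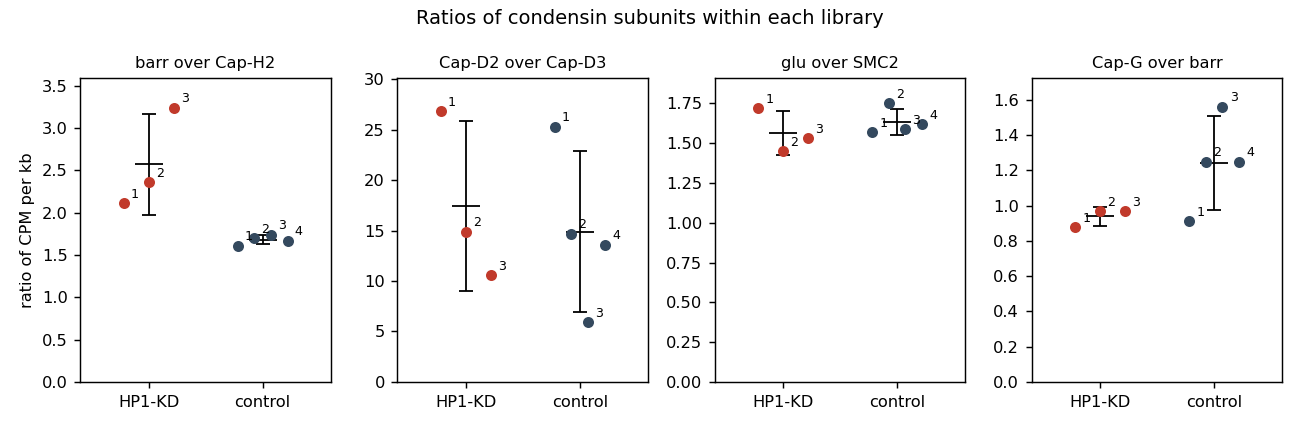
Ratios of CPM per kb (y axes, from 0) within each HP1-KD (red) and control (dark blue) library, with replicate numbers and the group mean and SD as bars. *barr* over *Cap-H2* lies between 2.11 and 3.24 in HP1-KD libraries and between 1.61 and 1.74 in control libraries, and the other 3 ratios overlap.

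Regulators and partners of condensin were followed as a list of 11 genes, all tested. Of these, 2 fell in HP1-KD embryos and none rose, beside 4.9% called lower among all genes. A negative log2 fold change was found for 9 (median −0.2, range −0.57 to 0.38), beside 52.2% of all genes, whose median was −0.03. *MRG15*, a chromodomain protein and a partner of Cap-H2, had 533.7, 635.7 and 463.2 normalized counts in HP1-KD libraries, against 743.6, 785.9, 883.0 and 824.0 in control libraries. Its groups did not overlap, and the log2 fold change was −0.57 ± 0.14 (SE, adjusted p = 0.0434 by edgeR). *ball*, a histone kinase needed for chromosome structure in meiosis, had 1343, 1536 and 1299 in HP1-KD libraries, against 1773, 1895, 2017 and 2061 in control libraries, again without overlap. It had a log2 fold change of −0.48 ± 0.11 (SE, adjusted p = 0.0371 by edgeR).

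Each of these 2 calls held in 2 of the 7 fits that left out a library. Neither *MRG15* nor *ball* passed without HP1-KD replicate 1, 2 or 3 or control replicate 2 or 4, with log2 fold changes of −0.69 to −0.47 for *MRG15* and −0.55 to −0.43 for *ball* over the fits with a library left out and adjusted p-values of up to 0.156 and 0.145 by edgeR. The kinases *Cdk1* (−0.37, adjusted p = 0.0507 by edgeR) and *polo* (−0.31, adjusted p = 0.0652), which drive mitotic entry, did not pass. Their HP1-KD libraries were all lower than their control libraries, as in 5 of the 11 listed genes and 15.1% of all genes tested. The same list held *CycB*, which went the other way (0.38, adjusted p = 0.44 by edgeR), with overlapping groups. *aurB*, with −0.04 (adjusted p = 0.812 by edgeR), overlapped as well. *slmb*, the ubiquitin ligase subunit that sends Cap-H2 to degradation, had a log2 fold change of 0.02 (adjusted p = 0.918 by edgeR, 95% interval −0.23 to 0.26).

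Cohesin, the SMC complex that holds sister chromatids together, was followed with its regulators as 14 genes. None was called by edgeR, DESeq2's Wald test or limma-voom, while in edgeR 3 had an unadjusted p under 0.05 with a lower and 1 with a higher level in HP1-KD embryos, beside 15.3% and 13.5% of all genes tested. The median log2 fold change was −0.19. *SMC1* had 109.0, 125.8 and 115.8 normalized counts in HP1-KD libraries, against 111.7, 153.8, 318.0 and 246.3 in control libraries, a log2 fold change of −0.83 ± 0.36 (SE, adjusted p = 0.172 by edgeR). *SMC3* had 146.8, 221.2 and 248.1 in HP1-KD libraries, against 179.1, 322.9, 513.6 and 278.0 in control libraries, with −0.65 ± 0.36 (SE, adjusted p = 0.257 by edgeR). In both genes control replicate 3 was the highest library, as in *Cap-D3* and *Cap-G*, and replicate 1 the lowest of its group. Without control replicate 3 the values were −0.56 for *SMC1* and −0.35 for *SMC3*. Its removal also brought 2 calls, *pim* (−0.6, adjusted p = 0.0107 by edgeR) and *vtd* (−0.45, adjusted p = 0.0365), and leaving out control replicate 1 brought 1, *wapl* (1.06, adjusted p = 0.0186). *wapl* releases cohesin from DNA, *vtd* is its kleisin and *pim* the securin.

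The SMC5/6 complex, which acts in DNA repair, had 7 listed genes, of which 6 were tested and *qjt* was too low. *cerv*, a subunit related to the SUMO ligase Nse2, fell to 137.9, 153.6 and 153.0 normalized counts in HP1-KD libraries, against 211.3, 228.5, 242.6 and 224.0 in control libraries. The log2 fold change was −0.61 ± 0.14 (SE, adjusted p = 0.0391 by edgeR), and the groups lay well apart. None of the other 5 tested genes was called, so that 1 of 6 was called lower, beside 4.9% of all genes, and the median of the 6 was −0.22. *cerv* did not pass without HP1-KD replicate 1, 2 or 3 or control replicate 2 or 4, at log2 fold changes of −0.64 to −0.54 over the fits with a library left out.

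Other topoisomerases and enzymes of DNA topology, a list of 6 genes, had log2 fold changes from −0.45 to 0.55 (median 0.49). *Top1*, which relaxes supercoils through breaks of a single strand, fell to 5919, 5843 and 5293 normalized counts in HP1-KD libraries, against 7195, 7849, 7577 and 8403 in control libraries. The means were 5685 ± 341 in HP1-KD and 7756 ± 508 in control embryos (SD, n = 3 and 4), a log2 fold change of −0.45 ± 0.10 (SE, adjusted p = 0.0371 by edgeR). The difference was close in size to that of *Top2* (−0.4 ± 0.12, SE), which did not pass. *gkt*, which repairs DNA ends bound by topoisomerase I, had 300.2, 311.2 and 335.0 normalized counts in HP1-KD libraries, against 236.5, 189.6, 230.2 and 209.6 in control libraries, with 0.54 ± 0.14 (SE, adjusted p = 0.0513 by edgeR). *Blm* (0.55) and *Top3alpha* (0.54), which act together on recombination intermediates, and *Top3beta* (0.43), a topoisomerase known for acting on RNA, did not pass either, so that 1 of 6 was called lower and none higher, beside 4.9% and 3.7% of all genes. All HP1-KD libraries lay above all control libraries in 4 of the 6, beside 15.2% of all genes. *Top1* did not pass without HP1-KD replicate 1, 2 or 3 or control replicate 2 or 4, with values between −0.48 and −0.4 over the fits with a library left out, and *gkt* passed without control replicate 1 (0.59, adjusted p = 0.0485 by edgeR) or 3 (0.57, adjusted p = 0.0279).

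Markers of stage moved with some of these values. The summed CPM of the 8 condensin and *Top2* genes was 1191, 1189 and 1137 in HP1-KD libraries, against 1402, 1367, 1590 and 1607 in control libraries. *Top2* weighed most in this sum, with means of 9162 normalized counts in HP1-KD and 12080 in control embryos. The next gene, *glu*, had 2766 and 3708, and *barr*, *Cap-D2*, *Cap-G* and *Cap-D3* overlapped between the groups. The 14 zygotic genes summed to 2334, 2938 and 1957 CPM in HP1-KD libraries, against 3373 to 3455 in control libraries. *slam* weighed most in the zygotic sum, with means of 15850 normalized counts in HP1-KD and 24130 in control embryos. *Sry-alpha* came next, with 6904 in HP1-KD and 9905 in control embryos. *Sry-alpha* and *Sry-beta* had the same log2 fold change (−0.52) and standard error (0.18), so their counts could not be told apart. Of the 14 zygotic genes 12 had a negative log2 fold change (median −0.54), beside 52.2% of all genes tested. None of the 14 was called by edgeR, where 7 had a lower level at an unadjusted p under 0.05, beside 15.3% of all genes tested. DESeq2's Wald test called 4 of the 14 lower, beside 9.8% of all genes, and limma-voom 2, beside 4.1%. The 12 maternal transcripts summed to 2109 to 2425 CPM in HP1-KD libraries, against 2568, 1910, 722 and 1932 in control libraries, with a median log2 fold change of 0.29. None of these was called by edgeR, where 2 had a higher level at an unadjusted p under 0.05 (13.5% of all genes), or by limma-voom, and 1 was called higher by DESeq2's Wald test (8.78% of all genes). *smg* weighed most in the maternal sum, with means of 18740 normalized counts in HP1-KD and 12830 in control embryos. Control replicate 3 had the lowest maternal sum. It also had the most *elav*, which encodes an RNA-binding protein of neurons and is the only gene of the 10 late embryo markers with enough counts to test. *elav* had 88.9, 222.5 and 175.8 normalized counts in HP1-KD libraries, against 112.7, 220.8, 1062 and 288.1 in control libraries, and replicate 1 of each group had the least, as for *Cap-D3*. Without control replicate 3, the log2 fold changes were −0.37 for *SMC2*, −0.44 for *glu*, −0.38 for *Cap-H2* and −0.36 for *Top2*. They were 0.21 for *barr*, −0.18 for *Cap-D2*, −0.05 for *Cap-G* and −0.08 for *Cap-D3*. The HP1-KD libraries keep their lower zygotic sums in that fit. The paper reports no defect at the start of zygotic transcription in HP1-KD embryos, and interphase nuclei in both groups. The part of embryo age in the values of the 8 genes was not tested.

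**Figure D5:**
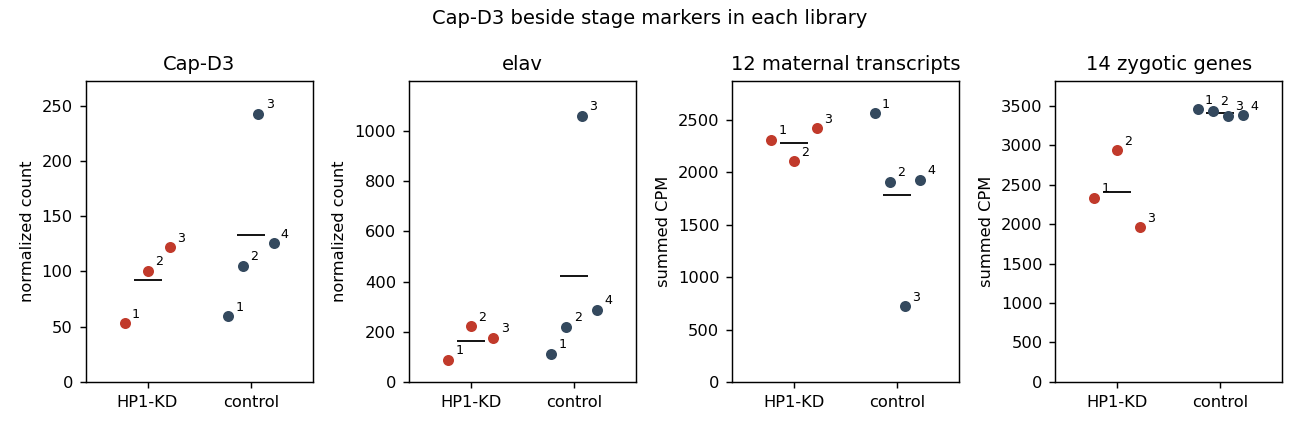
*Cap-D3* and *elav* (normalized counts) and the summed CPM of 12 maternal transcripts and 14 zygotic genes (y axes, from 0) in each HP1-KD (red) and control (dark blue) library, with replicate numbers and group means as lines. Control replicate 3 has the highest *Cap-D3* (242.6) and *elav* (1062) and the lowest maternal sum (722), and the zygotic sums of the HP1-KD libraries (1957 to 2938) lie below those of the control libraries.

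Beyond these lists, the genes whose levels over the 7 libraries were most like the median profile of the 8 genes were found by Pearson correlation. That profile, in log2 units around each gene's mean, was −0.11, −0.07 and −0.21 in HP1-KD libraries, against 0.04, 0.02, 0.16 and 0.23 in control libraries. *sti*, the citron kinase of cytokinesis, came first (r = 0.9944 over 7 libraries) with 3691, 3626 and 3197 normalized counts in HP1-KD libraries, against 4313, 4179, 5095 and 5422 in control libraries. It was followed by *Mad1* of the spindle checkpoint (0.9865), the insulator protein gene *Cp190* (0.9847), *row* (0.9834), whose product binds HP1c, and *CG9121* (0.9796). Of these 5, *CG9121* fell, with a log2 fold change of −2.07 at under 50 normalized counts in each library (adjusted p = 0.0345 by edgeR). The other 4 had log2 fold changes between −0.44 and −0.3 and were not called (adjusted p between 0.0702 and 0.119 by edgeR). The correlation is a description over libraries that share their depth and group.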

How the data were processed

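Total RNA of stage 5 embryos was sequenced from TruSeq Stranded libraries, 3 of HP1-KD and 4 of control embryos. For every FlyBase gene the authors deposited an estimated count, a multiple of 0.5 that had not been normalized. The submitters' processing notes name STAR and dm6. The counting program, its version and its handling of strands are not given in the sources used here. Columns were paired with samples by the headers. Of 17699 identifiers, 17561 (99.22%) were found in Ensembl release 115, which gave positions, exons and symbols.

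Estimated counts were rounded. Low genes were removed with filterByExpr (edgeR 4.0.16, R 4.3.3), TMM factors of 0.38 to 1.73 scaled the libraries, and groups were compared with edgeR's two-sided quasi-likelihood F-test over all genes, with Benjamini-Hochberg adjustment over 8008 genes. A normalized count is the TMM-scaled CPM at the mean effective library size. The standard error is the size of the log2 fold change divided by the square root of F. A level of 3 counts was a CPM of 0.129 to 0.463. Intervals cover 95%. Libraries of each group were distinct (chi-square per degree of freedom of at least 15.1). The fit was tested on simulated data. Figures were drawn with matplotlib 3.10.9.

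The 8 genes and the lists were chosen with earlier results of these data known. Named genes are the 8, *Su(var)2-5*, list genes with an adjusted p under 0.05, *SMC1*, *SMC3* and *Top1*, and the 5 genes most like the median profile of the 8 (log2 CPM, prior count 2). Other list genes, neighbours, the ratios of *glu* to *SMC2* and *Cap-G* to *barr* and the comparison with *elav* were chosen after their values were seen, as was the count of genes without overlap. Alternatives were other scalings, filters and gene sets, a robust fit, DESeq2 1.42.0, limma-voom (limma 3.58.1), a replicate block, a threshold of 0.1 and each library left out. A comparison of promoter and protein sequences was planned, and no sequence was used here.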

Additional observations from a re-analysis of the deposited data

How the results depend on the processing

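Of the refits of the 8 genes, 136 kept sign and side of the threshold, 7 came to pass it, and 1 changed sign, *barr* at −0.89 with total count alone. The count of called members, 0, became 1 with ribosomal RNA genes removed, among protein-coding genes only or with the robust fit (*Top2* each time), 3 with DESeq2's Wald test or at 0.1, and 0 to 1 with a library left out. The count without overlap, 4, ranged from 3 to 5. The 688 calls over all genes became 1095 with total count alone (1064 of them lower), 439 with at least 10 counts in every library, 404 among protein-coding genes, 1488 with DESeq2's Wald test, 1435 at 0.1, and 181 to 1212 with a library left out. Condensin regulators, 2 called, had 4 with ribosomal RNA removed or at 0.1, 5 by DESeq2's Wald test, 1 with upper-quartile scaling or limma-voom, 0 with total count alone or no filter on low counts, and 0 to 3 with a library left out. Cohesin, 0 called, had 3 with total count alone (*SMC1*, *SMC3* and *SA*) and 0 to 2 with a library left out. SMC5/6, 1 called, had 0 with upper-quartile scaling, no filter or limma-voom, 0 to 1 with a library left out, and with total count alone *SMC6* in place of *cerv*. The topoisomerase list, 1 called, had 2 with DESeq2's size factors, the robust fit, DESeq2's Wald test or at 0.1 (*gkt* added), 0 with total count alone or no filter, and 0 to 2 with a library left out. Same-numbered libraries correlated at 0.408, −0.126 and 0.0573 in their deviations from group means, for replicates 1, 2 and 3. The value of replicate 1 was the highest of any pair of an HP1-KD and a control library. Whether these libraries share more than a number was not tested. With the replicate block, 96 genes were called, and 0 members, 0 condensin regulators, 0 cohesin, 0 SMC5/6 and 0 topoisomerase genes, *Su(var)2-5* keeping −1.36 (adjusted p = 0.0388 by edgeR). The causes were not tested. Longest transcripts in place of all exons moved only *Cap-H2*, to 6.29 CPM per kb in HP1-KD and 8.13 in control embryos. *Cap-D3* had the fewest counts of the 8 genes, 24 to 392.5 a library.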

Other observations

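Among the chorion genes of ovarian follicle cells, 4 (*Cp36*, *Cp38*, *Cp16* and *Cp19*) were counted in a single library, whereas *Cp15* and *Cp18* had a few counts in both groups. In HP1-KD replicate 1, *Cp36* had 17.8 normalized counts and *Cp38* 26.7, and both were at 0 in the other HP1-KD libraries and in all control libraries, where 3 counts are a CPM of 0.129 to 0.43. The levels of condensin genes and *Top2* in that library lay within the range of the other HP1-KD libraries for *Cap-D2* and *SMC2*, above it for *glu* and *Cap-H2*, and below it for *barr*, *Cap-G*, *Cap-D3* and *Top2*. These comparisons were made after the values were seen.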
